A study of Mus musculus with 18 samples.

Results

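The 10 genes described here encode 6 receptors of the tumor necrosis factor (TNF) receptor superfamily, *Tnfrsf1a*, *Tnfrsf1b*, *Tnfrsf9*, *Tnfrsf11a*, *Fas* and *Ltbr*, and 4 TNF receptor-associated factors (TRAFs), *Traf1*, *Traf2*, *Traf3* and *Traf6*. They were picked by name and found by their symbols in a table of 62197 mouse genes, and all 10 passed the filter on low values, which left 17875 genes to test. Receptors of this superfamily bind trimeric ligands on the cell surface. Most of them have no enzymatic activity and recruit TRAF proteins to their cytoplasmic tails, either directly or through the death domain adaptor TRADD. TRAF2, TRAF3 and TRAF6 are RING finger proteins that help to assemble ubiquitin-based complexes upstream of NF-κB and MAP kinases, whereas TRAF1 has no RING finger and associates with TRAF2. TRAF3, together with TRAF2 and the cIAP proteins, keeps the NF-κB-inducing kinase at low levels, and TRAF6 also acts below Toll-like receptors such as the receptor for LPS. In dendritic cells (DCs), TNF family signals are known for their part in maturation and survival.

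Bulk RNA-seq was performed on DCs grown from mouse bone marrow for 10 days, which were left nonconfined, confined under a roof at a height of 3 µm and collected after 4 h, or exposed to LPS at 100 ng ml-1 for 30 min, washed and collected the next day. These are the entries of the labels, while the Methods give a shorter LPS exposure. The protocol entry of every sample mentions LPS, but titles and treatment entries name it for the LPS groups alone, and these were followed. Each condition was sampled in cells of cPLA_2_ WT and cPLA_2_ KO mice, with 3 libraries in each of 6 groups and 18 libraries in all. The cPLA_2_ KO mice carry a floxed *Pla2g4a*, the gene of cytosolic phospholipase A_2_, which is deleted by a Cre recombinase under the CD11c (*Itgax*) promoter, so *Pla2g4a* RNA can persist in cells in which Cre was not active. All cells were differentiated with medium containing GM-CSF. The age of the mice is not in the labels, but the Methods give age ranges in weeks. Nonconfined cells were taken at the end of the culture, so LPS exposure and the extra time of culture cannot be told apart. Nor can confinement be told apart from the 4 h until collection and the handling in the device. The paper's figure legend calls each of these samples a biological replicate. Nothing in the labels ties the libraries of a group to separate mice, so the tests measure the spread between these libraries. Levels are read counts per gene divided by the authors' DESeq2 size factor of the library, called normalized counts below, and are not scaled for gene length. The libraries held between 33027230 and 61300021 reads on genes. Among the 10 genes and 18 libraries the lowest value, that of *Tnfrsf11a* in a confined cPLA_2_ KO library, still rested on 297 reads.

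The genotype labels were checked first. Before any confinement, *Pla2g4a* averaged 718 ± 46.0 normalized counts in the 3 cPLA_2_ WT libraries and 541 ± 7.49 in the 3 cPLA_2_ KO libraries (mean ± SD). In confined cells it was 1373 ± 54.9 and 904 ± 28.8. It was thus lower, but far from absent, in the cPLA_2_ KO groups of both conditions. In the LPS groups it was not lower, with 980 ± 21.0 in the libraries labelled cPLA_2_ WT and 1042 ± 20.4 in those labelled cPLA_2_ KO. The Y-linked gene *Ddx3y* had at most 4 reads in each nonconfined or confined cPLA_2_ WT library and 874 to 1036 normalized counts in each cPLA_2_ KO library of these conditions. The sex of the donors and the genotype therefore cannot be told apart in the genotype comparisons of nonconfined and confined cells. *Xist*, transcribed from the inactive X chromosome of female cells, was at least 12153 normalized counts in each of the 18 libraries, Y-positive ones included. With LPS, *Ddx3y* stood at 1271, 0 and 662 in the libraries labelled cPLA_2_ WT and at 2.12, 1476 and 783 in those labelled cPLA_2_ KO. The LPS libraries of replicate 2 labelled cPLA_2_ WT and replicate 1 labelled cPLA_2_ KO differed by a chi-square per degree of freedom of 5.08, and replicates 3 of both labels by 6.08, against 9.55 to 42.5 between LPS libraries of 1 label. These 4 libraries resembled one of the other label more than any of their own. The LPS libraries are therefore named by their labels only and were mainly analysed as 6 libraries together, and whether they come from 6 separate cultures was not tested. If some share a culture, the p values of comparisons with LPS would be too low. All these chi-square values lay above sampling noise, and no library was counted as a copy of another.

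Markers were used to check the cells. *Cd74*, the invariant chain of MHC class II and the most abundant of 11 DC markers, averaged 259102 normalized counts over the 18 libraries. Per the Methods, cells of intermediate adhesion were collected, so that loose granulocytes and firmly attached macrophages were left out. Genes of other bone marrow cells were nevertheless present, among them the neutrophil gene *S100a9* at 132143 and the eosinophil gene *Prg2* at 18479. Of the 10 macrophage markers, *Vsig4* had at most 3 reads in every library. In bulk RNA, fewer cells of a type and less RNA per cell cannot be told apart, for these markers and for the receptors and adaptors alike.

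In nonconfined cPLA_2_ WT cells the receptors were expressed at very different levels. Per kilobase of merged exons, *Tnfrsf1a*, which encodes the widely expressed death domain receptor TNFR1, came first with 1381 normalized counts per kb. *Tnfrsf1b*, the gene of TNFR2, which lacks a death domain and binds TRAF2, followed with 849.6 per kb, and *Ltbr*, the lymphotoxin β receptor, with 796. *Tnfrsf9*, the costimulatory receptor 4-1BB, stood at 618 and the death receptor gene *Fas* at 401. Every TRAF gene lay below these receptors on this scale, from *Traf3* at 373 per kb through *Traf6* at 276 and *Traf1* at 175 to *Traf2* at 118. *Tnfrsf11a*, which encodes RANK, the receptor for the osteoclast factor RANKL, was the lowest of the 10 with 65.5 per kb. Nonconfined cPLA_2_ KO cells gave the same order of all 10 genes. The exon lengths merge every annotated isoform, so these ranks depend on the annotation.

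The genes lie on 6 chromosomes of the GRCm39 (mm39) assembly. *Ltbr* (GSMG0047129, chr6:125283534-125290848, minus strand) and *Tnfrsf1a* (GSMG0045068, chr6:125326686-125341032, plus strand) lie close to each other on chromosome 6. *Tnfrsf1b* (GSMG0039679, chr4:144938938-144973443, minus strand) and *Tnfrsf9* (GSMG0037618, chr4:151004612-151030559, plus strand) share chromosome 4. *Traf1* (GSMG0031825, chr2:34831762-34851785, minus strand), *Traf2* (GSMG0031650, chr2:25406108-25436952, minus strand) and *Traf6* (GSMG0030434, chr2:101508765-101532881, plus strand) are all on chromosome 2. The remaining genes are *Tnfrsf11a* (GSMG0000690, chr1:105708442-105775709, plus strand), *Fas* (GSMG0027630, chr19:34268059-34305170, plus strand) and *Traf3* (GSMG0011651, chr12:111132803-111233589, plus strand). The last 1419 bases of *Tnfrsf1a* in the table overlap *Plekhg6*, which averaged 16.7 normalized counts against 4957 for *Tnfrsf1a*. *Traf2* contains an unnamed gene with a mean of 134 normalized counts against 1426 for *Traf2*, and genes overlapping *Traf3* reached at most 6.23 against 4062. How reads in these overlaps were assigned was not tested.

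To ask how confinement relates to these genes, confined and nonconfined cPLA_2_ WT cells were compared. Of the 10 genes, 8 rose and none fell, whereas 56.6% of all genes tested changed, 28.2% upward and 28.4% downward. The median log2 fold change was 0.85 for the 10 genes and -0.01 for all genes. *Tnfrsf1b*, *Tnfrsf9*, *Fas* and *Traf1* rose 3.93-fold to 6.26-fold, *Traf2* 2.06-fold, and *Tnfrsf1a*, *Traf3* and *Traf6* 1.42-fold to 1.57-fold. *Ltbr* and *Tnfrsf11a* did not pass the test.

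Among the receptors, *Tnfrsf1b* had 4435, 3983 and 4198 normalized counts in the 3 nonconfined cPLA_2_ WT libraries and 20587, 19308 and 20986 in the confined ones. Each confined library was far above each nonconfined one, and the change was 4.83-fold (log2 fold change 2.27 ± 0.09 (SE), adjusted p = 2.67e-15, limma with Benjamini-Hochberg adjustment). *Tnfrsf9* had 1708, 1684 and 1656 normalized counts without confinement and 7124, 6764 and 6851 with it. The spread between replicates was small on both sides of this 4.11-fold rise (log2 fold change 2.04 ± 0.04, adjusted p = 1.36e-19, limma). *Fas* libraries read 919, 907 and 966 normalized counts without confinement and 3886, 3612 and 3494 with it, again without overlap, for a log2 fold change of 1.97 ± 0.09 (adjusted p = 3.87e-14, limma). *Tnfrsf1a*, the most abundant receptor per kilobase before confinement, moved much less, from a mean of 4350 ± 93.0 (SD, n = 3) to 6233 ± 313 normalized counts. Its rise was 1.43-fold and still larger than the spread, with adjusted p = 3.37e-09 (limma). *Tnfrsf11a* averaged 495 ± 18.5 and 532 ± 20.9, and *Ltbr* 1903 ± 63.9 and 2019 ± 108, with overlapping libraries in both cases. Their log2 fold changes were 0.10 (adjusted p = 0.374) and 0.08 (adjusted p = 0.259, limma). When every library was instead scaled to the same total, the median of all genes moved to -0.23 and *Ltbr* to -0.14, which passed the test (adjusted p = 0.0292, limma, against 0.0292 to 0.641 over the alternatives).

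Among the adaptors, *Traf1* showed the largest change of the 10 genes. It had 1601, 1521 and 1549 normalized counts in nonconfined and 10061, 9478 and 9706 in confined cPLA_2_ WT libraries. The groups were separated by a 6.26-fold difference (log2 fold change 2.65 ± 0.07, adjusted p = 3.39e-18, limma). *Traf2*, whose product carries the RING finger that TRAF1 lacks, went from 904 ± 26.6 to 1863 ± 63.6 normalized counts, a log2 fold change of 1.04 ± 0.07. *Traf3* went from 3042 ± 79.2 to 4784 ± 72.4, with a log2 fold change of 0.65. *Traf6* changed least of the 4, from 2866 ± 72.9 to 4061 ± 146, with a log2 fold change of 0.50. For *Traf2*, *Traf3* and *Traf6* no confined library fell within the nonconfined range, and the highest adjusted p of the 3 genes was 4.73e-08 (limma).

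Many markers of other cells fell with confinement in the same libraries, where 28.4% of all genes tested fell. All 10 neutrophil markers were lower, their summed level going from 240277 to 245294 in nonconfined cPLA_2_ WT libraries to 144958 to 154432 in confined ones. Of 7 eosinophil markers 5 were lower and 1 higher, with sums of 30748 to 30982 before and 8081 to 8602 after. Of 7 mast cell and basophil markers, led by *Cpa3*, 6 were lower and 1 higher, with sums of at least 9712 before and at most 4410 after. The 3 T and NK cell markers tested, led by *Cd3g*, were lower as well. Of 9 macrophage markers tested, led by *Csf1r*, 4 were lower and 1 higher, with mean sums of 66629 before and 66530 after, and of 11 DC markers 8 were lower and 2 higher, the DC sums going from at least 444071 to at most 429176. The part of these shifts in the rise of the receptor and adaptor genes was not tested.

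**Figure D1:**
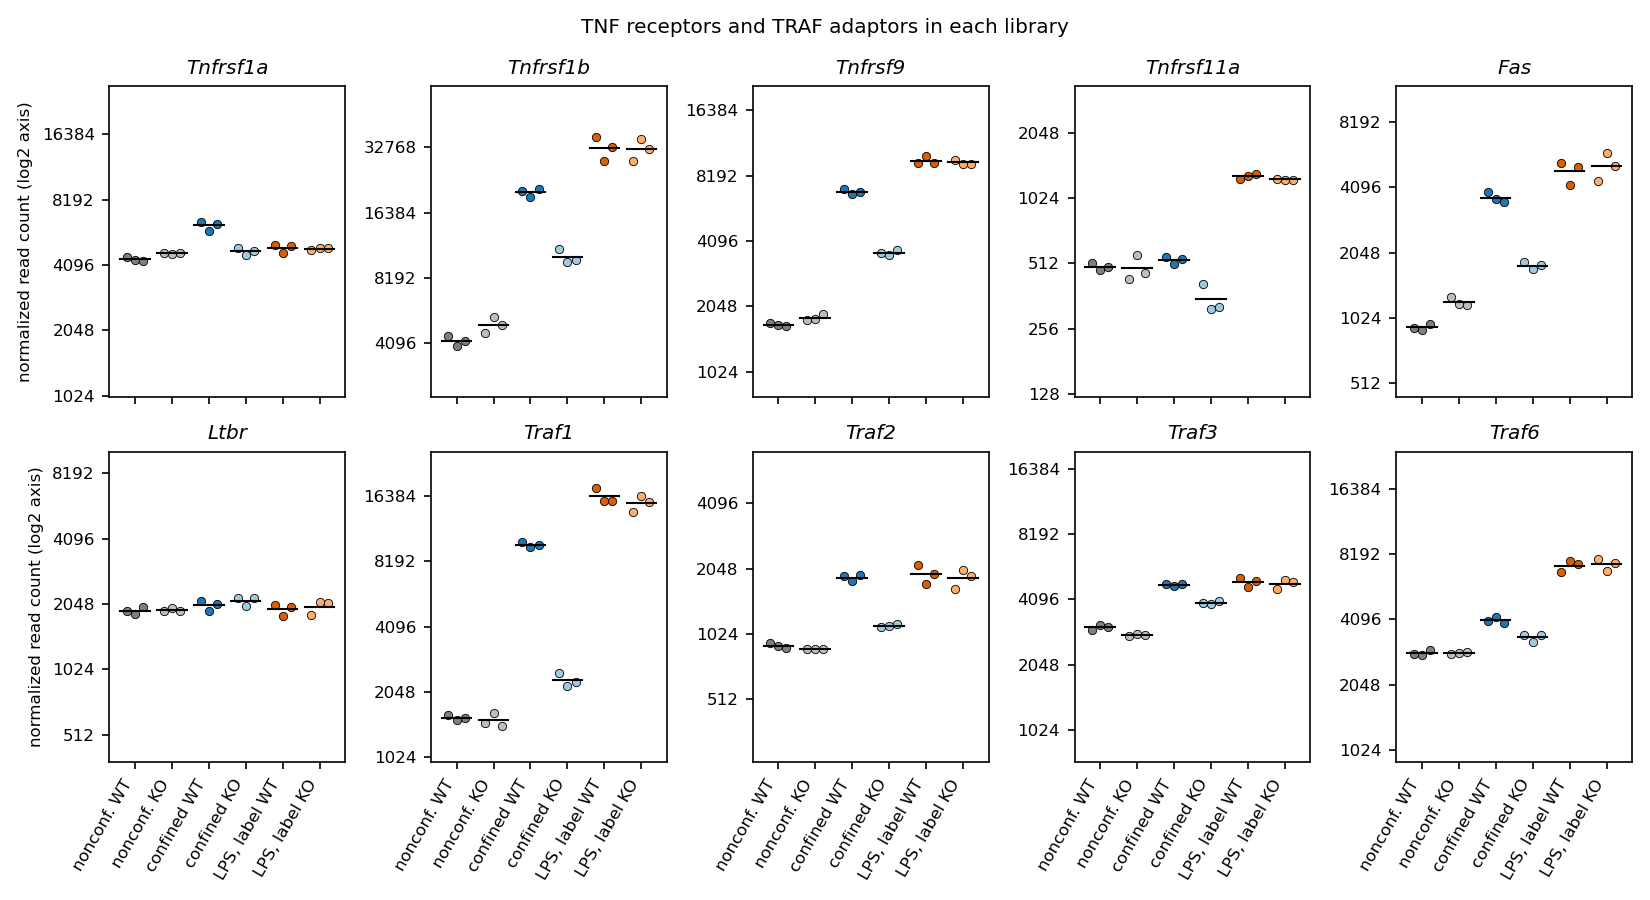
Normalized read count of each gene in each library (points, log2 axis, every panel spanning the same fold range) in the 6 groups, with 3 libraries per group and the group mean as a line. *Traf1* reaches a mean of 9748 in confined cPLA_2_ WT cells and 2324 in confined cPLA_2_ KO cells, while *Ltbr* keeps means between 1903 and 2117 in all groups.

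The same comparison in cPLA_2_ KO cells asked what confinement is accompanied by when cPLA_2_ is deleted in CD11c-expressing cells. Here 7 of the 10 genes rose and 1 fell, against 46.3% of all genes tested, 22.8% upward and 23.4% downward. The median log2 fold change of the 10 genes was 0.42, and that of all genes 0.01. *Tnfrsf1b* libraries read 4552, 5408 and 4968 normalized counts without confinement and 11133, 9752 and 9944 with it. *Tnfrsf9* libraries read 1767, 1786 and 1879 without and 3601, 3531 and 3725 with confinement. Both receptors about doubled and their groups did not overlap, with log2 fold changes of 1.05 ± 0.09 (adjusted p = 2.73e-09) and 1.00 ± 0.04 (adjusted p = 9.79e-14, limma). *Traf1* had 1469, 1643 and 1425 normalized counts in nonconfined and 2504, 2188 and 2279 in confined libraries. This was a 1.54-fold rise (log2 fold change 0.62 ± 0.07, adjusted p = 2.09e-07, limma). *Fas* had 1284, 1187 and 1178 normalized counts in nonconfined libraries and 1855, 1717 and 1797 in confined ones, which is a log2 fold change of 0.56 ± 0.09 without overlap. *Traf3*, *Traf2* and *Traf6* rose by log2 fold changes of 0.49, 0.36 and 0.25. *Tnfrsf11a* went the other way, from 436, 562 and 465 normalized counts to 410, 317 and 322. Every confined library was below every nonconfined one, and the level fell by 0.48 on the log2 scale (adjusted p = 0.000256, limma). *Tnfrsf1a* libraries overlapped, with means of 4632 ± 30.7 and 4739 ± 179 normalized counts and a log2 fold change of 0.03. *Ltbr* had a log2 fold change of 0.14 (adjusted p = 0.072, limma, and 0.0317 to 0.244 over the alternatives). Without replicate 2 of the confined cPLA_2_ KO libraries its adjusted p was 0.0375, and without replicate 1 of the LPS libraries labelled cPLA_2_ KO, which enter through the shared estimate of the spread, it was 0.0485. It was 0.0317 without the 2 LPS libraries with under 10 *Ddx3y* reads. In these cPLA_2_ KO libraries 4 of 10 neutrophil, 6 of 7 eosinophil, 6 of 7 mast cell and basophil, 5 of 9 macrophage, 3 of 3 T and NK cell and 10 of 11 DC markers were lower with confinement, 1 mast cell and basophil and 1 macrophage marker were higher, and their part in the changes was not tested.

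**Figure D2:**
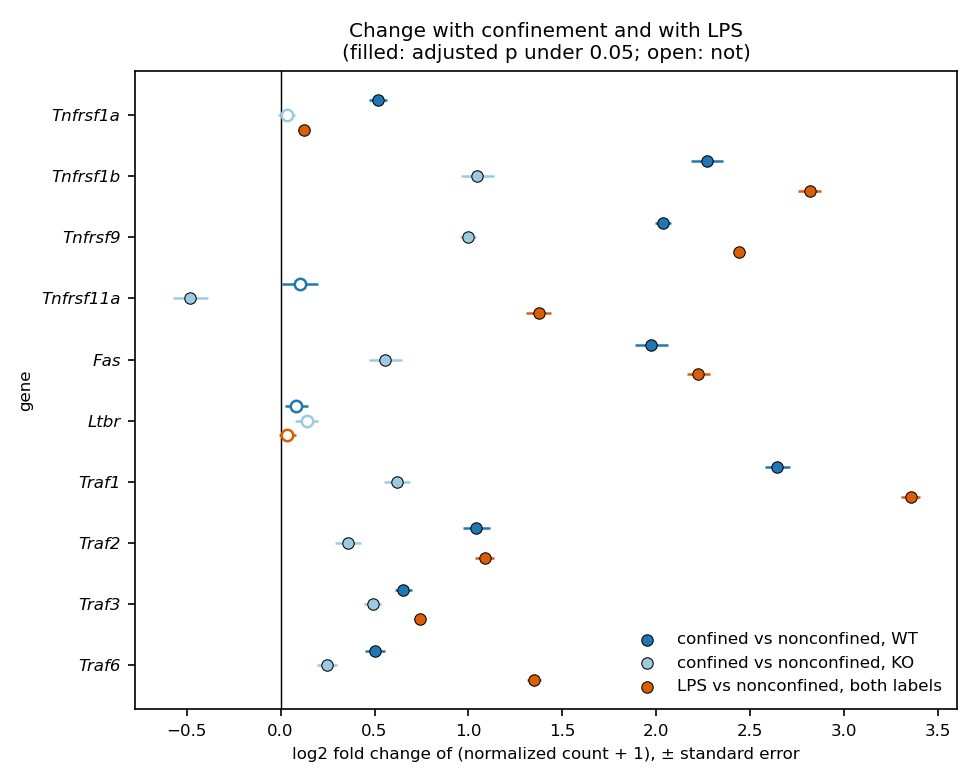
Log2 fold change of each gene (x axis, log2 of normalized count + 1, bars show the standard error) for confinement in cPLA_2_ WT cells, confinement in cPLA_2_ KO cells and LPS against nonconfined cells with both genotype labels together. *Traf1* lies at 2.65, 0.62 and 3.35 in the 3 comparisons, and *Ltbr* lies below 0.15 in each.

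Whether confinement was followed by a different change in the 2 genotypes was tested directly by the interaction of both factors. The interaction is the log2 fold change in cPLA_2_ KO cells minus that in cPLA_2_ WT cells. It passed the test as negative for 8 of the 10 genes and as positive for none. For 7 of them the rise in cPLA_2_ WT cells was smaller or did not pass in cPLA_2_ KO cells, whereas *Tnfrsf11a* fell in cPLA_2_ KO cells without a change that passed in cPLA_2_ WT cells. Of all genes tested, 25.8% showed an interaction, 10.2% upward and 15.6% downward. The median interaction on the log2 scale was -0.63 for the 10 genes and 0.05 for all genes. *Traf1* differed most, with an interaction of -2.03 ± 0.10 (adjusted p = 4.06e-13, limma). Receptors followed, with *Fas* at -1.42 ± 0.13, *Tnfrsf1b* at -1.22 ± 0.12 and *Tnfrsf9* at -1.04 ± 0.06, the highest adjusted p of the 3 being 9.22e-08 (limma). *Traf2*, *Tnfrsf11a* and *Tnfrsf1a* had interactions of -0.68, -0.58 and -0.49. *Traf6* had the smallest one that passed, -0.26 ± 0.07 (adjusted p = 0.014, limma, and 0.00442 to 0.55 over the alternatives). With the same total per library, which moved the median of all genes to 0.24, *Traf6* no longer passed at -0.07. *Traf3*, the adaptor whose loss is known to free NF-κB-inducing kinase, had an interaction of -0.16 (adjusted p = 0.0606, limma, and 0.0234 to 0.753 over the alternatives). It passed with edgeR (adjusted p = 0.0234), with DESeq2 (0.0239), with only the groups compared (0.0388, limma) and with a filter of 100 normalized counts (0.0417, limma). It also passed without replicate 2 of the LPS libraries labelled cPLA_2_ WT (adjusted p = 0.0483), without replicate 1 of those labelled cPLA_2_ KO (0.0451) or without the 2 LPS libraries with under 10 *Ddx3y* reads (0.0313, limma). With the same total per library it was 0.03 and did not pass (adjusted p = 0.753, limma). For *Ltbr* the interaction was 0.05 (adjusted p = 0.707, limma, and 0.0166 to 0.952 over the alternatives), and with the same total per library it was 0.24, close to the median of all genes there (0.24), and passed (adjusted p = 0.0166). Markers also showed interactions, upward for 9 of 10 neutrophil genes (median 0.69) and for 4 of 7 mast cell and basophil genes with 1 downward, and downward for 7 of 11 DC genes (median -0.41) with none upward. Of 9 macrophage and 7 eosinophil markers 1 each was downward and none upward, and the part of the markers in the interactions of the 10 genes was not tested.

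In confined cells themselves, 9 of the 10 genes were lower in cPLA_2_ KO than in cPLA_2_ WT cells and none was higher. Of all genes tested, 39.4% differed between these groups, 18.8% being higher and 20.6% lower in cPLA_2_ KO cells, and the median log2 fold change was 0.04 against -0.67 for the 10 genes. The *Traf1* level was 4.2-fold lower (log2 fold change -2.07 ± 0.07, adjusted p = 3.17e-16, limma). *Fas*, *Tnfrsf1b* and *Tnfrsf9* had log2 fold changes of -1.03, -0.98 and -0.93. *Traf2* at -0.73, *Tnfrsf11a* at -0.61 and *Tnfrsf1a* at -0.39 were followed by *Traf3* at -0.28 and *Traf6* at -0.26. In each of these 9 genes all 3 cPLA_2_ KO libraries lay below all 3 cPLA_2_ WT libraries, though how many of all genes did so was not counted. The exception was *Ltbr*, with means of 2019 and 2117 normalized counts, overlapping libraries and a log2 fold change of 0.07 (adjusted p = 0.414, limma, and 0.00181 to 0.81 over the alternatives). With the same total per library *Ltbr* was higher in cPLA_2_ KO cells by 0.22 (adjusted p = 0.00181, limma), where the median of all genes was 0.19. With the same total per library the difference in *Traf6* was -0.10 and no longer passed (adjusted p = 0.159, against 1.57e-05 to 0.159 over the alternatives, limma, edgeR and DESeq2). Neutrophil markers were higher in confined cPLA_2_ KO cells for 10 of 10 genes, with summed levels of 330924 to 346911 against 144958 to 154432. Eosinophil markers were higher for 5 and lower for 2 of 7 genes, with sums of 19499 to 20551 against 8081 to 8602, and mast cell and basophil markers for 5 of 7, with sums of at least 7276 against at most 4410. Of the DC markers 4 of 11 were lower and none was higher, with sums of 359632 to 373697 against 399910 to 429176. Macrophage markers were higher for 4 of 9 genes and lower for 1, and T and NK cell markers were higher for 1 of 3. The part of these markers, and of the sex of the donors, in the differences of the 10 genes was not tested.

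Without confinement few of the 10 genes differed between the genotypes. Only *Fas* passed the test, 1 of the 10 genes, while 8.88% of all genes tested differed, 4.78% being higher and 4.11% lower in cPLA_2_ KO cells. The number of all genes that differed, 1588, depended on single libraries, being 993, 842 and 846 without nonconfined cPLA_2_ WT replicate 1, 2 or 3, and 756 and 864 without nonconfined cPLA_2_ KO replicate 1 or 3. Without nonconfined cPLA_2_ KO replicate 2 it rose to 2097. The *Fas* level was 1.31-fold higher in cPLA_2_ KO cells (log2 fold change 0.39 ± 0.09, adjusted p = 0.00931, limma, and 0.000104 to 0.056 over the alternatives). Without replicate 1 of the nonconfined cPLA_2_ KO libraries, the highest of the 3, *Fas* no longer passed (log2 fold change 0.35, adjusted p = 0.056, limma). *Tnfrsf1b* had a log2 fold change of 0.24 (adjusted p = 0.0948, limma, and 0.0143 to 0.281 over the alternatives). It passed without replicate 2 of the LPS libraries labelled cPLA_2_ WT, which enter through the shared estimate of the spread (adjusted p = 0.0457, limma), without the 2 LPS libraries with under 10 *Ddx3y* reads (0.016) and with only the groups compared (0.0143). The other 8 genes had log2 fold changes between -0.11 and 0.11. Of these, *Traf3* at -0.11 (adjusted p = 0.124, limma, and 0.0235 to 0.331 over the alternatives) passed with the same total per library (-0.15, adjusted p = 0.0235), where the median of all genes was -0.04. Neutrophil markers were higher for 7 of 10 genes here too, with sums of at least 333356 against at most 245294, and eosinophil markers for 6 of 7 with 1 lower, with sums of at least 70178 against at most 30982. Mast cell and basophil markers were higher for 5 of 7 genes (mean sums 14324 and 9802), DC markers for 5 of 11 with 1 lower (539740 and 454611), macrophage markers for 4 of 9 and T and NK cell markers for 1 of 3. Their part in the difference of *Fas* was not tested.

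Between the LPS libraries labelled cPLA_2_ KO and those labelled cPLA_2_ WT, none of the 10 genes differed, and neither did any of the genes tested (0%, limma), although 20 genes did without the 2 libraries with under 10 *Ddx3y* reads, 3 without replicate 2 labelled cPLA_2_ WT, 1 without replicate 2 labelled cPLA_2_ KO and 1 without a filter, none of them among the 10. At an unadjusted p under 0.05 limma gave 890 genes, none of them among the 10, and edgeR and DESeq2 on the recovered reads also called 0 genes after adjustment, with 812 and 831 at the unadjusted p. The log2 fold changes of the 10 genes lay between -0.10 and 0.07. Since the labels of these libraries are in doubt, this comparison is one of labels and not of genotypes.

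LPS, a bacterial ligand of TLR4 that drives DC maturation, served as the reference for a strong stimulus. With both labels together, 9 of the 10 genes rose against nonconfined cells and none fell, except that *Tnfrsf1a* had the opposite sign with the same total per library. Of all genes tested 71.5% changed, 37.2% upward and 34.3% downward, so that a changed gene was the rule under this condition. The median log2 fold change was 1.36 for the 10 genes and 0.02 for all genes. *Traf1* ranged from 13810 to 17838 normalized counts in the 6 LPS libraries with a median of 15502. Against 1425 to 1643 in the 6 nonconfined libraries, this was a 10.2-fold rise (log2 fold change 3.35 ± 0.05, adjusted p = 2.44e-23, limma). *Tnfrsf1b* ranged from 28206 to 36611 with a median of 32531, *Tnfrsf9* from 9254 to 10043 with a median of 9335, and *Fas* from 4196 to 5891 with a median of 5130. All 3 receptors lay above every nonconfined library, with log2 fold changes of 2.82, 2.44 and 2.22. *Tnfrsf11a* ranged from 1243 to 1323 normalized counts with a median of 1257, and rose 2.59-fold (log2 fold change 1.37 ± 0.07, adjusted p = 4.21e-14, limma). *Traf6*, the adaptor of TLR4 signaling, ranged from 6769 to 7773 with a median of 7403, a 2.54-fold rise. *Traf2* and *Traf3* had log2 fold changes of 1.09 and 0.74. *Tnfrsf1a* had a log2 fold change of 0.12 with overlapping libraries (adjusted p = 0.00185, limma, and 7.36e-11 to 0.186 over the alternatives). With the same total per library, which shifted the median of all genes to -0.47, its value was -0.37, and with TMM scaling it did not pass (adjusted p = 0.172). *Ltbr* had a log2 fold change of 0.04 (adjusted p = 0.468, limma, and 5.78e-10 to 0.864 over the alternatives), and of -0.46 with the same total per library, which passed and was about the shift of all genes. Without the 2 LPS libraries with under 10 *Ddx3y* reads, 9 genes passed as before, beside 12513 of all 17726 genes tested there. In the libraries labelled cPLA_2_ WT alone 9 passed, beside 11223 of all 17875 genes tested. In those labelled cPLA_2_ KO alone 8 passed, beside 11356 of 17875, and *Tnfrsf1a* did not (adjusted p = 0.186, limma). DC markers were higher for 9 of 11 genes and lower for 1. Eosinophil markers were lower for 7 of 7 genes, mast cell and basophil markers for 5 of 7 with 1 higher, macrophage markers for 6 of 9 with 2 higher and T and NK cell markers for 3 of 3, while neutrophil markers were higher for 4 and lower for 5 of 10. The nonconfined genotypes differ in these markers, and the eosinophil sums of 25447 to 43766 in LPS libraries lay below the 70178 to 75325 of nonconfined cPLA_2_ KO libraries but around the 30748 to 30982 of cPLA_2_ WT ones. *Prg2* and *Epx* averaged 17276 and 7005 in nonconfined cPLA_2_ WT cells, less than the 19712 and 8074 of the LPS libraries labelled cPLA_2_ WT. The part of these markers in the changes was not tested.

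Confined cells were then set beside LPS-treated cells, both labels together. In cPLA_2_ WT cells 6 of the 10 genes were lower and 1 was higher after confinement than after LPS, against 29.8% lower and 24.5% higher, or 54.3% in all, among the genes tested. The gap was widest for *Tnfrsf11a* (log2 fold change -1.26 ± 0.08) and *Traf6* (-0.84 ± 0.05), with a highest adjusted p of 2.62e-11 (limma). *Traf1*, *Tnfrsf1b*, *Tnfrsf9* and *Fas* reached 0.621, 0.63, 0.728 and 0.736 of their LPS levels. *Fas* did not pass with the same total per library (adjusted p = 0.0637, limma). *Tnfrsf1a* was the gene with a higher level in confined cells, by a log2 fold change of 0.35 ± 0.04 (adjusted p = 1.86e-07, limma). *Traf2* and *Traf3* had log2 fold changes of -0.02 and -0.03 against LPS and overlapping libraries, and positive ones of 0.27 and 0.26 that passed with the same total per library, where the median of all genes was 0.27. *Ltbr*, at 0.04, was 0.33 and passed there as well. In cPLA_2_ KO cells 8 of the 10 genes were lower than after LPS and none was higher, against 62.9% of the genes tested, 32.5% lower and 30.3% higher. *Traf1* had the largest log2 fold change, -2.76 ± 0.06, followed by *Tnfrsf11a* at -1.87 and *Tnfrsf1b* at -1.65. *Traf3*, at -0.31, changed sign with the same total per library (0.14), and *Tnfrsf1a*, at -0.05, was higher there (0.40), where the median of all genes was 0.47. *Ltbr* had a log2 fold change of 0.11 (adjusted p = 0.0792, limma, and 1.31e-09 to 0.348 over the alternatives), and it passed without replicate 2 of the confined cPLA_2_ KO libraries (adjusted p = 0.0371), with the same total per library (0.55), with TMM scaling, with edgeR and with DESeq2. Against LPS, DC markers were lower for 10 of 11 genes and mast cell and basophil markers for 6 of 7 in confined cells of either genotype, with 1 higher in each list, and eosinophil markers were lower for 5 of 7, with 2 and 1 higher. Neutrophil markers were lower for 9 of 10 genes in confined cPLA_2_ WT cells, and 4 were higher and 1 lower in confined cPLA_2_ KO cells. Macrophage markers were higher for 3 of 9 genes in either genotype and lower for 5 and 3, T and NK cell markers were higher for 1 and 2 of 3, and the part of these markers was not tested. The comparisons of this paragraph and the preceding one share the LPS libraries.

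The order of the groups was the same for *Tnfrsf1b*, *Tnfrsf9* and *Fas*. Nonconfined cPLA_2_ WT cells were lowest, then nonconfined cPLA_2_ KO, confined cPLA_2_ KO and confined cPLA_2_ WT cells, and the LPS libraries were highest, with neighbors in this order apart in all libraries except for the 2 LPS labels. *Traf1* and *Traf6* had the same order but for overlapping nonconfined groups. For *Traf2* and *Traf3*, confined cPLA_2_ WT and LPS-treated cells overlapped at the top. *Tnfrsf11a* was lowest in confined cPLA_2_ KO cells, where 317 to 410 normalized counts lay below the 436 to 562 of nonconfined cPLA_2_ KO cells, and the nonconfined and confined cPLA_2_ WT groups overlapped. *Tnfrsf1a* alone of the 10 genes had its highest level in confined cPLA_2_ WT cells, above all LPS libraries. For *Ltbr* every pair of neighboring groups overlapped.

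The unequal changes of the receptors for TNF altered their proportion. Per kilobase, *Tnfrsf1b* stood at 0.615 ± 0.0253 of *Tnfrsf1a* in nonconfined cPLA_2_ WT libraries and at 0.684 ± 0.0633 in nonconfined cPLA_2_ KO libraries (SD, n = 3). Confined cPLA_2_ WT libraries had a ratio of 2.07 ± 0.0448 and confined cPLA_2_ KO libraries one of 1.38 ± 0.0537. In the 6 LPS libraries the ratio was 4.2 ± 0.357. Per kilobase, the *Tnfrsf1b* transcript thus went from below to above that of *Tnfrsf1a* in confined cells of both genotypes, and the libraries of these conditions did not overlap. Without scaling for length, nonconfined means of *Tnfrsf1b* and *Tnfrsf1a* were 4205 and 4350 in cPLA_2_ WT cells, but 4976 and 4632 in cPLA_2_ KO cells. The crossing in cPLA_2_ KO cells therefore depends on the exon lengths used. *Tnfrsf9* also passed *Tnfrsf1a* per kilobase in confined cPLA_2_ WT cells, with 2540 against 1979 normalized counts per kb, but not in confined cPLA_2_ KO cells, with 1330 against 1505. *Traf1* had rank 8 of the 10 genes in nonconfined cPLA_2_ WT cells and rank 5 after confinement, at 1099 per kb, and it had rank 8 in confined cPLA_2_ KO cells, at 262.

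Ligands of the superfamily were examined as the partners of these receptors. Of 18 ligand genes, *Tnfsf12* and *Tnfsf13* share 1 entry in the table, 4 were under the filter (*Cd40lg*, *Fasl*, *Tnfsf18* and *Eda*), and 13 entries were tested. With confinement 8 rose and 4 fell in cPLA_2_ WT cells (median log2 fold change 1.62), and 3 rose and 7 fell in cPLA_2_ KO cells (median -0.44). Of all genes tested 56.6% and 46.3% changed in these comparisons, with medians of -0.01 and 0.01. Interactions that passed were negative for 10 of 13 and positive for 1, against 15.6% negative and 10.2% positive among all genes tested. The median interaction was -1.50, against 0.05 for all genes tested. *Tnf*, the ligand of both TNF receptors, averaged 5146 ± 163 normalized counts in nonconfined and 17772 ± 473 in confined cPLA_2_ WT cells, and 6049 ± 187 and 7385 ± 303 in cPLA_2_ KO cells. *Tnfsf9*, the ligand of 4-1BB, went from 653 ± 45.4 to 5099 ± 85.5 in cPLA_2_ WT cells, and stood at 657 ± 70.4 and 482 ± 34.6 in cPLA_2_ KO cells. RANKL (*Tnfsf11*) was at 0.508 ± 0.88 in nonconfined and 159 ± 36.1 in confined cPLA_2_ WT cells, and at 4.3 ± 4.32 in confined cPLA_2_ KO cells. *Tnfsf15*, the ligand of the death receptor DR3, showed a similar contrast, with 222 ± 9.74, 8738 ± 154 and 268 ± 29.7 in these 3 groups. The ligand of FAS was under the filter in this table, whereas *Tnfsf10*, which encodes TRAIL, rose in cPLA_2_ WT cells (log2 fold change 2.99) and fell in cPLA_2_ KO cells (-1.89). With LPS 9 ligand entries rose and 3 fell (median 2.84, against 0.02 and 71.5% changed for all genes), with log2 fold changes of 5.65 for *Tnf* and 8.02 for *Tnfsf15*.

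**Figure D3:**
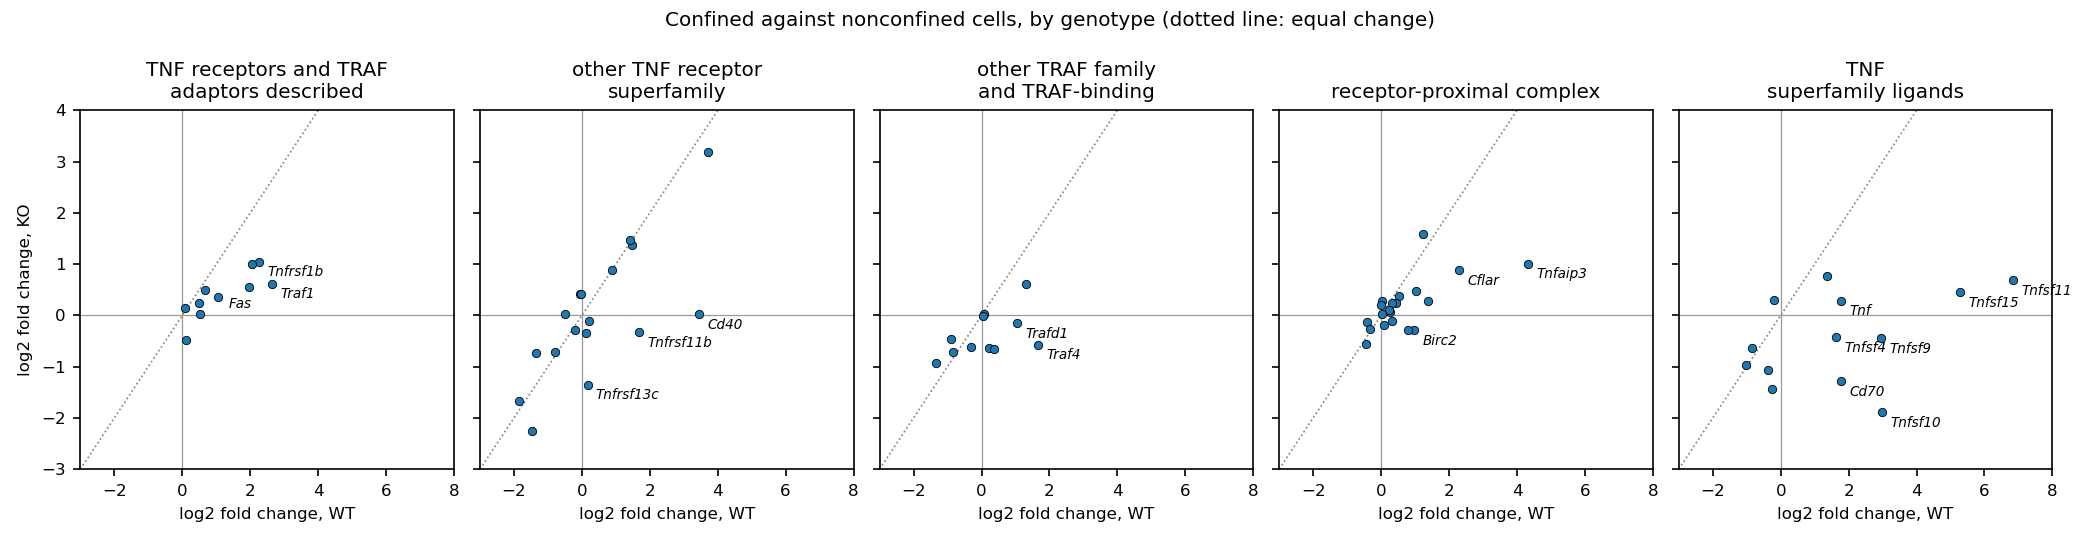
Log2 fold change of confined against nonconfined cells in cPLA_2_ WT (x axis) and cPLA_2_ KO (y axis) cells for the 10 genes and for 4 lists of related genes, each point being 1 gene and the dotted line marking equal change. Ligands such as *Tnfsf15* lie far below the line (5.29 in cPLA_2_ WT cells, interaction -4.84), as do *Tnfaip3* and *Cd40*.

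The remaining receptors of the superfamily moved in both directions. Of 22 genes 17 were tested, *Cd27*, *Edar*, *Ngfr*, *Tnfrsf17* and *Tnfrsf19* being under the filter. Confinement was followed by a rise of 7 and a fall of 4 in cPLA_2_ WT cells (median log2 fold change 0.12), and by a rise of 6 and a fall of 7 in cPLA_2_ KO cells (median -0.12). These 11 and 13 of 17 stand beside 56.6% and 46.3% of all genes, with medians of -0.01 and 0.01. An interaction was found for 4 downward and 3 upward, against 25.8% of all genes. *Cd40*, a TRAF-binding receptor of antigen-presenting cells, went from 452 ± 36.9 to 4924 ± 120 normalized counts in cPLA_2_ WT cells, and its interaction was -3.42 ± 0.08 (adjusted p = 3.33e-18, limma). Its means in nonconfined and confined cPLA_2_ KO cells were 463.5 and 473. *Tnfrsf12a*, the receptor of TWEAK, rose in both genotypes, with log2 fold changes of 1.48 and 1.37, and *Tnfrsf4*, which encodes OX40, fell in both, with -1.86 and -1.68. *Tnfrsf13c*, the BAFF receptor gene, fell in cPLA_2_ KO cells (-1.35). With LPS 8 of the 17 rose and 6 fell (median 0.16, against 0.02 and 71.5% changed for all genes), *Cd40* by a log2 fold change of 5.90.

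Proteins of the complexes at the receptors, or acting close to them, were encoded by 20 further genes, all of them tested. With confinement 13 rose and 3 fell in cPLA_2_ WT cells (median log2 fold change 0.31), and 9 rose and 6 fell in cPLA_2_ KO cells (median 0.15). For all genes 28.2% rose and 28.4% fell in cPLA_2_ WT and 22.8% rose and 23.4% fell in cPLA_2_ KO cells, with medians of -0.01 and 0.01. Interactions that passed were negative for 9 and positive for 2 (15.6% and 10.2% of all genes). The count was 7 negative and none positive without replicate 1 of the confined cPLA_2_ WT libraries, beside 2496 and 1669 of all 17810 genes tested there. *Tnfaip3*, the gene of the deubiquitinase A20 that restrains NF-κB, went from 1171 ± 25.0 to 23715 ± 300 normalized counts in cPLA_2_ WT cells and from 1260 ± 101 to 2526 ± 100 in cPLA_2_ KO cells. *Cflar*, which encodes the caspase-8 inhibitor c-FLIP, had log2 fold changes of 2.29 and 0.88 in the 2 genotypes. *Birc3* and *Birc2*, the genes of the TRAF2-binding cIAP proteins, had interactions of -1.08 and -1.26. *Ikbkg*, the gene of NEMO, rose in both, with 1.23 and 1.59. With LPS 15 of the 20 rose and 2 fell (median 0.58, against 0.02 and 37.2% up and 34.3% down for all genes), *Tnfaip3* by a log2 fold change of 4.94.

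Further TRAF genes and genes of TRAF-binding proteins, 11 in all, were all tested. With confinement 4 rose and 4 fell in cPLA_2_ WT cells (median log2 fold change 0.08), and 1 rose and 8 fell in cPLA_2_ KO cells (median -0.57). Among all genes the changed share was 56.6% and 46.3%, and the medians were -0.01 and 0.01. *Traf4* averaged 630 ± 40.7 and 2006 ± 99.2 normalized counts in nonconfined and confined cPLA_2_ WT cells, and 854 ± 48.0 and 574 ± 56.5 in cPLA_2_ KO cells, and its interaction was -2.24 ± 0.13 (adjusted p = 1.98e-11, limma). *Tank*, whose product binds TRAFs, rose in both genotypes, with log2 fold changes of 1.31 and 0.61. Interactions that passed were negative for 5 of the 11 and positive for 1, against 15.6% and 10.2% of all genes. *Traf4* and *Traf1* thus had the largest interactions of the TRAF genes tested. With LPS 4 of the 11 rose and 4 fell (median 0.10, against 0.02 and 71.5% changed for all genes), and *Traf4* stood at 739 ± 94.9 and 840 ± 95.5 in the libraries of the 2 labels.

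The genes whose pattern over the 18 libraries was most like that of each receptor or adaptor were found among 10554 genes by the Pearson correlation of log2 values. The 18 libraries belong to 6 groups, so these values also carry the differences between groups. *Slc15a3*, a transporter gene, came first for both *Tnfrsf1b* (r = 0.997) and *Fas* (r = 0.995). *Tnfrsf9* was closest to *Il1b* and *Atf3* (both r = 0.997), the genes of interleukin-1β and of a stress-induced transcription factor. *Traf1* was closest to *1110032F04Rik* and *Etv3* (both r = 0.998), *Traf2* to *Nfkbiz* (r = 0.990), which encodes an atypical IκB protein, and *Tnfrsf11a* to the chemokine gene *Ccl22* (r = 0.991). *Traf3* was closest to *Prag1* (r = 0.995), *Traf6* to *Ero1a* (r = 0.996) and *Tnfrsf1a* to *Carhsp1* (r = 0.969). *Ltbr* had no such close partner, the highest value being 0.826 with *Zfp874b*. Among the 10 genes, *Tnfrsf1b* and *Tnfrsf9* were most alike (r = 0.993), and *Ltbr* and *Tnfrsf11a* least (r = -0.20).

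Since several of the genes moved together, their promoters were searched for motifs. RefSeq promoters (GRCm38.p6) were found for all 10 genes, 11 promoters in all because *Tnfrsf9* has a pair of them, and the 250 bases before each start were placed in GRCm39 by an exact and unique match. Both strands were searched. The κB consensus occurred in 2 of the 11 promoters, the second one of *Tnfrsf9* and that of *Traf3*, and in 7.25% of 32851 mouse promoters of the same length. TTCNNNGAA occurred in 4 (*Fas*, *Tnfrsf1a*, *Tnfrsf1b* and the second of *Tnfrsf9*; 7.02% of all), GAAANNGAA in 1 (*Tnfrsf1b*; 7.13%) and TGANTCA in 2 (*Fas* and the second of *Tnfrsf9*; 6.75%). In *Tnfrsf9* 2 overlapping κB matches span bases -43 to -33 before the start, and in *Traf3* 1 match spans -10 to -1. Gene-level counts do not separate the starts of *Tnfrsf9*, and a match is a description of the sequence and not a measured site. The promoters with a κB match are printed with that match in capitals, beside the first promoter of *Tnfrsf9* and the promoter of *Traf1*, the gene with the largest change, in which none of the 4 motifs was found.

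*Tnfrsf9*, first promoter, chr4:151004362-151004611, plus strand: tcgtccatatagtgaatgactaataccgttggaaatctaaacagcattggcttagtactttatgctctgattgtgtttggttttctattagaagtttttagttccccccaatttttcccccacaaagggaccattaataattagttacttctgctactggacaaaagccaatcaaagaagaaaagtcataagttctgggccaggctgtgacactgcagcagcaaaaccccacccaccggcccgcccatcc

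*Tnfrsf9*, second promoter, chr4:151012206-151012455, plus strand: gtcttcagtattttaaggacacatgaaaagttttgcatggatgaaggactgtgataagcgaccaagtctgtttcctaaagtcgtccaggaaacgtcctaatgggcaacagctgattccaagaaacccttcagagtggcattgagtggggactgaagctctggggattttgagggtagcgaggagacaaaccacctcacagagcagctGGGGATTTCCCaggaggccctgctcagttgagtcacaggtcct

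*Traf3* promoter, chr12:111132554-111132803, plus strand: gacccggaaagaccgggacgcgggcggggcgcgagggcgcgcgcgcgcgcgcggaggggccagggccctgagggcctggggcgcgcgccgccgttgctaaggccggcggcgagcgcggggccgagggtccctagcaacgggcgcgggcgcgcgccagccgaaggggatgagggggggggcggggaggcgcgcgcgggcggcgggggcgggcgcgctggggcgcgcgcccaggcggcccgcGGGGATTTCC

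*Traf1* promoter, chr2:34851785-34852034, minus strand: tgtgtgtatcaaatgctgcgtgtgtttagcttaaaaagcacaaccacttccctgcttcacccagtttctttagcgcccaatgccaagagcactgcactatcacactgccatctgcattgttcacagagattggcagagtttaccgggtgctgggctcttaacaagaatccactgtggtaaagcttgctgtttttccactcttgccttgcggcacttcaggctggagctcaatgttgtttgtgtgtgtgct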

How the data were processed

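Normalized gene counts (a signal per gene) were read from the deposited table. Per the labels and Methods, the authors mapped reads with STAR 2.7.5a to mm39, counted them with featureCounts 1.5.0 on the Mouse FAST DB annotation and divided counts by DESeq2 size factors in R 3.5.3 (DESeq2 version not given). Either of a pair of stranded mRNA kits was used, and which library came from which is not given. The authors' intergenic filter was not repeated.

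Whole reads were recovered for 100% of values (tolerance 0.01 reads). Values were tested as log2(normalized count + 1) with limma 3.58.1 (lmFit, contrasts.fit, eBayes with trend, R 4.3.3) in 1 fit of 18 libraries, so fold changes of low genes are understated. The 17875 genes tested reached 10 normalized counts in 3 libraries or more. A gene passed at a Benjamini-Hochberg adjusted p under 0.05, over all genes tested. On recovered reads, edgeR 4.0.16 (quasi-likelihood) called 5283 genes higher and 4819 lower, and DESeq2 1.42.0 5219 and 5048, for confinement in cPLA_2_ WT cells.

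The 10 genes, the 4 lists of related genes and the 7 marker lists were chosen with earlier results of these data known, and 1 marker list is not reported here. All 10 genes are described, and of each list at most the 6 largest changes that passed per comparison are named. The joined entry of *Tnfsf12* and *Tnfsf13* counts once. Omitting the LPS libraries with under 10 *Ddx3y* reads was an alternative chosen after seeing the data. Replicate numbers were not used as pairs. The pipeline was tested on simulated data. Python packages were numpy 2.4.6, pandas 2.3.3, scipy 1.17.1 and matplotlib 3.10.9.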

Additional observations from a re-analysis of the deposited data

Results flagged for a closer look

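For 8 of the 10 genes the change with confinement differed between the genotypes by the test of the interaction itself (limma, adjusted p under 0.05), all 8 downward, against 25.8% of all genes tested, 15.6% downward and 10.2% upward. The interactions on the log2 scale were -2.03 for *Traf1*, -1.42 for *Fas*, -1.22 for *Tnfrsf1b* and -1.04 for *Tnfrsf9*. *Traf2* had -0.68, *Tnfrsf11a* -0.58, *Tnfrsf1a* -0.49 and *Traf6* -0.26. Each value is the change in cPLA_2_ KO cells minus that in cPLA_2_ WT cells, with 3 libraries in each of the 4 groups. In *Tnfrsf11a* the change in cPLA_2_ KO cells was a fall, in the other 7 genes a smaller rise or, for *Tnfrsf1a*, a change that did not pass the test. With the same total per library *Traf6* no longer passed (-0.07, adjusted p = 0.55, limma). *Ltbr* then passed upward (0.24, adjusted p = 0.0166, limma), where the median of all genes was 0.24. Donor sex cannot be told apart from genotype in these libraries. Markers also had interactions, upward for 9 of 10 neutrophil genes (median 0.69) and 4 of 7 mast cell and basophil genes with 1 downward, and downward for 7 of 11 DC genes with none upward (median -0.41). The interaction contrasts changes within each genotype, and the part of sex and of the mix of cells in it was not tested.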

How the results depend on the processing

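Of 2830 log2 fold changes of the 10 genes under 35 alternatives, 2744 stayed on the same side of the threshold, 57 no longer passed, 22 newly passed with the same sign and 7 passed with the opposite sign. Of the 2744, 38 had another sign but passed neither way. The 7 all arose with the same total per library. They were *Tnfrsf1a* for LPS against nonconfined cells (-0.37) and for confined cPLA_2_ KO cells against LPS (0.40), *Ltbr* for confinement in cPLA_2_ WT cells (-0.14) and LPS (-0.46), *Traf2* (0.27) and *Traf3* (0.26) for confined cPLA_2_ WT cells against LPS, and *Traf3* for confined cPLA_2_ KO cells against LPS (0.14). That scaling also moved the share of passing genes that were higher, from 49.8% to 32.6% for confinement in cPLA_2_ WT cells, from 39.5% to 70.7% for the interaction, and from 53.8% to 42.0% and 47.7% to 69.8% for genotype in nonconfined and confined cells. For LPS the share went from 52.0% to 26.0%, and against LPS from 45.2% to 75.2% for confined cPLA_2_ WT and from 48.2% to 77.5% for confined cPLA_2_ KO cells.

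Requiring an absolute log2 fold change above 1 left 5 genes for confinement in cPLA_2_ WT cells, 1 in cPLA_2_ KO cells, 4 for the interaction, 2 for genotype in confined cells, 0 in nonconfined cells and 1 for confined cPLA_2_ WT cells against LPS. A 1.5-fold change with an unadjusted p of 0.05 left 3 for confinement in cPLA_2_ KO cells, 5 for the interaction, 0 for genotype in nonconfined cells and 4 for confined cPLA_2_ WT cells against LPS. The first of these criteria adds a minimum fold change to the test, and the second sets one beside a p without adjustment. The share of all genes that pass these criteria is not given here, so the counts describe the 10 genes only. For genotype in nonconfined cells, where 1 gene passed, 2 passed with the same total per library, beside 1798 of all 18016 genes tested. With only the groups compared 2 passed, beside 2148 of 15661. Without the LPS libraries with under 10 *Ddx3y* reads, an alternative chosen after seeing the data, 2 passed, beside 2171 of 17726. Leaving out 1 library at a time gave 0 to 2, beside 756 to 2097 of all genes tested. Of 1132 counts of passing genes in the 4 lists of related genes, 54 moved by more than 1.5 times, 37 of them under these other criteria. Except as stated, the cause was not tested.

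The replicate block (a term for the replicate number) left the number of the 10 genes that passed unchanged. Numbers in brackets are those that passed with it among all 17875 genes tested. For confinement 8 passed in cPLA_2_ WT (10002) and 8 in cPLA_2_ KO cells (8138), and 8 for the interaction (4426). For genotype 1 passed in nonconfined (1384) and 9 in confined cells (6861), and between the LPS labels 0 (0). For LPS 9 passed (12718), and 7 and 8 for confined cPLA_2_ WT and cPLA_2_ KO cells against LPS (9576 and 11166). Residuals of confined cPLA_2_ WT and cPLA_2_ KO libraries with the same number correlated at 0.338, 0.208 and 0.040. For nonconfined and confined cPLA_2_ WT libraries the values were 0.183, 0.106 and -0.064, and no other combination compared had one above 0.1. Libraries with different numbers were not compared, so whether the numbers mark pairs cannot be told.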
